A study of Mus musculus with 35 samples.

Results

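The genes described here are 40 genes of mitosis, whose products build the spindle, hold chromosomes to it, time their separation and cut the daughter cells apart. They were chosen by name. All 40 were found among the 49671 genes of the count table, 39 by symbol and Sgo1 by its identifier, since the table lists it under its older symbol Sgol1. All 40 also passed the filter on low counts, which left 17166 genes to test, and the lowest count of any of them in any library was 161, for Cdc25c.

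The libraries came from mouse lin- hematopoietic stem and progenitor cells, C57Bl/6 bone marrow cells depleted of cells with lineage markers, which had been infected with a lentivirus, sorted for its fluorescent markers and grown for 1 week in methylcellulose with myeloid and erythroid growth factors and GM-CSF. NUP98-HOXA9 (NHX9) is a leukemic fusion of the phenylalanine-glycine (FG) repeats of the nucleoporin NUP98 to the DNA-binding homeodomain of HOXA9, and every NHX9 construct carried an mEGFP tag (G-). There were 7 groups with 5 total RNA libraries each. Empty cells carried the vector with mCherry alone and were sorted for mCherry, while the construct cells were sorted for mCherry and mEGFP. Against Empty, the tag and the sort therefore cannot be told apart from the fusion. G-NHX9 was the unmutated fusion, G-NHX9-8FA and G-NHX9-21FGAA had a smaller and a larger set of FG motifs mutated to alanine, G-NHX9-midi kept a shortened FG region without the GLEBS domain, G-NHX9-midi-21FGAA combined that shortening with the FG mutations, and G-NHX9-DDNA had a homeodomain mutated to weaken DNA binding. The cells were primary cells with the constructs expressed from a virus on top of the endogenous genes. The labels give an age of 8 weeks for all libraries except Empty 4 (9 weeks), Empty 5 (10 weeks) and G-NHX9 1 (11 weeks). These 3 are consecutive samples whose ages rise by 1 week each, so the ages may be an entry error and were not used. Nothing in the labels says that the libraries of a group came from separate animals or cultures, so the p-values measure the spread between these libraries.

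Entry into mitosis depends on Cdk1 bound to cyclin B, and the genes of this program are transcribed mainly in G2 and mitosis, so that their RNA is abundant only in cells that divide. Many of them are held silent in resting cells by the DREAM complex and activated by B-MYB and FOXM1, which act through a promoter element called the CHR (cell cycle genes homology region), often beside CCAAT boxes bound by NF-Y. In bone marrow progenitors they mark the dividing part of the population, and they fall as cells mature. In bulk RNA, fewer cells in mitosis and less of these RNAs per cell cannot be told apart.

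Library totals ran from 31559914 to 75810659 counts, and levels are given as CPM, the count relative to a fixed library size after TMM scaling, which sets that size from the bulk of the genes. TMM factors were 0.899 to 0.955 in Empty and 0.921 to 1.11 in the other groups, and the top 10 genes of each library summed to 12.4% to 15.4% of its reads in Empty and 9.85% to 13.3% elsewhere. The summed level of the 40 genes was 1536 to 4281 CPM. The Empty libraries 1 to 5 held 3060, 1536, 2142, 1745 and 2173 CPM of these genes, so that Empty 1 stood above the other 4. G-NHX9 libraries held 3342, 3619, 2621, 3154 and 4022 CPM, of which library 3 was below Empty 1.

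The G-NHX9-8FA libraries held 1844, 1839, 2047, 2428 and 3173 CPM and the G-NHX9-midi libraries 1759, 3632, 2462, 1663 and 2527 CPM, both spread across the Empty range, with G-NHX9-8FA 5 and G-NHX9-midi 2 above every Empty library. The G-NHX9-21FGAA libraries held 3877, 3542, 3532, 3962 and 4011 CPM and the G-NHX9-midi-21FGAA libraries 3479, 3542, 3590, 3352 and 3857 CPM. These 2 groups lay wholly above Empty and were the tightest, with SDs of 231 and 186 CPM against 585 CPM in Empty and 789 CPM in G-NHX9-midi. The G-NHX9-DDNA libraries held 4281, 4021, 4077, 3235 and 3043 CPM, of which 1 was below the highest Empty library.

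**Figure D1:**
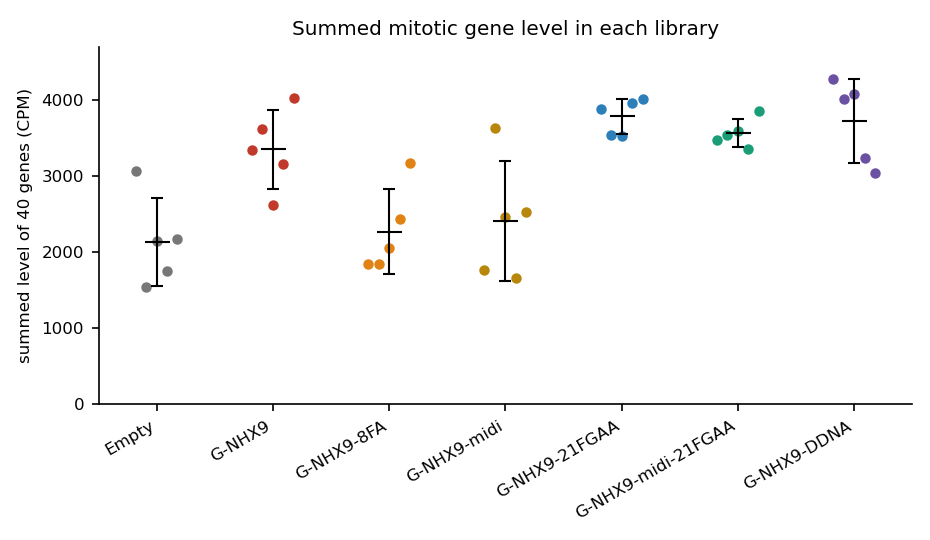
Summed level of the 40 mitotic genes (CPM, vertical axis) in each library, by group. Points are libraries, and the bar and whiskers are the mean and SD over 5 libraries. Empty 1 at 3060 CPM stands above the other Empty libraries, and the G-NHX9-21FGAA and G-NHX9-midi-21FGAA libraries lie at 3352 CPM or above.

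Per kilobase of exon, the most abundant of the 40 was Mki67, the Ki-67 protein that coats mitotic chromosomes, at 55.8 CPM per kb over all 35 libraries. Top2a, the topoisomerase that untangles sister chromatids, was next at 46.8 CPM per kb, followed by Ccnb2 (cyclin B2) at 34.4 and Ccna2 (cyclin A2) at 28.2 CPM per kb. Cdc25c, a phosphatase that activates Cdk1, had the lowest level per kilobase, at 1.79 CPM per kb. The most abundant gene per kilobase within each of the other roles was Aurka among the mitotic kinases (16.6 CPM per kb), Aurkb in the chromosomal passenger complex (16.3), Cdc20 in the spindle checkpoint (23.4), Cenpa in the kinetochore (10.9), Kif11 among the kinesins (15.4) and Tpx2 among the genes of the midzone and cytokinesis (19.8).

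The 40 genes rose and fell together from library to library. The correlation of each gene with the mean of the other 39, on log2 CPM over the 35 libraries, had a median of 0.937, and with each group's mean removed the median was 0.904. All genes of a library share its depth and scaling, so the value is a description only. Bub3, a checkpoint protein that also works in interphase, was the member that followed the others least, at 0.331 over all libraries and 0.492 within groups. Its highest and lowest libraries differed by a factor of 1.68, against a factor of 5.39 for the kinase Plk1 and 5.12 for Mki67.

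The promoters of the 40 genes were read for CHR motifs (TTTGAA or TTCGAA, either strand) and CCAAT boxes (CCAAT, either strand). RefSeq promoter windows of GRCm38.p6, from 250 bases before the gene start to 50 after it, were held for 33 of the 40 genes, in 36 windows. A CHR motif lay in 83.3% of these windows, against 19.2% of the 32851 windows of all genes. A CCAAT box lay in 75% of them against 37.4%, and both in 66.7% against 7.52%. Among the other mitotic genes listed below, 41% of 100 windows held a CHR motif and 62% a CCAAT box. By gene, 27 of 33 had a CHR motif, 24 had a CCAAT box and 21 had both, while Birc5, Mad2l1 and Nuf2 had neither. A match is a string of letters and not a measured binding site, and the windows of Bub3, Ect2 and Prc1 that overlap count the same matches again.

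**Figure D2:**
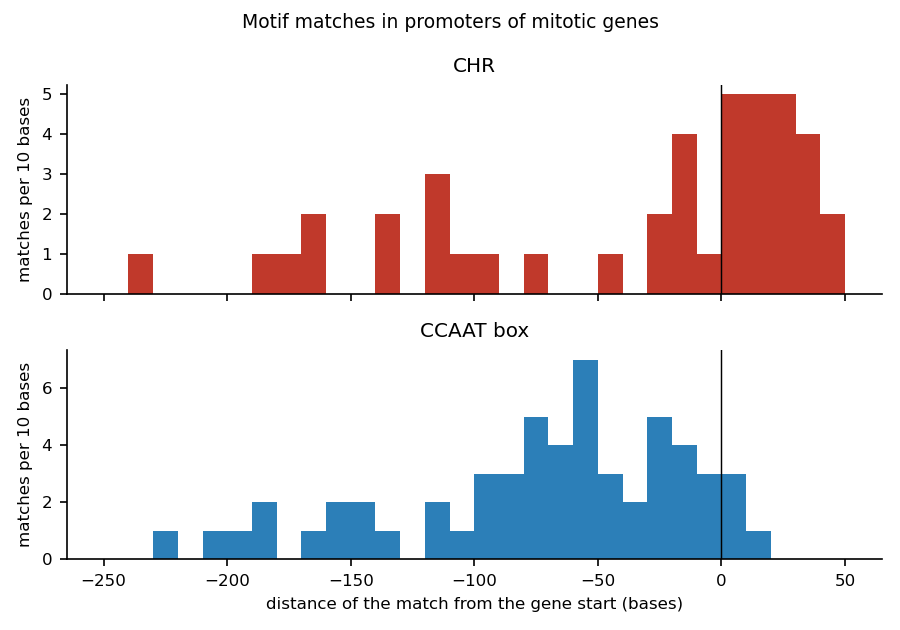
Position of each CHR and CCAAT match in the 36 promoter windows of 33 mitotic genes, as the distance of its first base from the gene start (horizontal axis, bases, upstream negative) against the number of matches per 10 bases. The 42 CHR matches have a median position of -1 and the 57 CCAAT matches a median of -62.

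Windows of 6 promoters are printed below, since these genes carry the results that follow: Cdc20 and Kif20b, with the largest rises in G-NHX9, Ccnb2, Bub1 and Mki67, and Bub3, the gene that followed the others least. Each runs 5′ to 3′ on the strand of its gene, and capitals mark the CHR motifs and CCAAT boxes of either strand. All are from GRCm38.p6: Cdc20 at chr4:118437337-118437406 (minus strand, positions -63 to 7 from the gene start), Ccnb2 at chr9:70421535-70421731 (minus, -177 to 20), Bub1 at chr2:127831835-127831937 (minus, -78 to 25), Kif20b at chr19:34922355-34922382 (plus, -3 to 25), Mki67 at chr7:135716462-135716577 (minus, -198 to -83) and Bub3 at chr7:131560286-131560352 (plus, -84 to -18).
Cdc20: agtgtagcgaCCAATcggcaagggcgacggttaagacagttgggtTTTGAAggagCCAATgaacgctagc
Ccnb2: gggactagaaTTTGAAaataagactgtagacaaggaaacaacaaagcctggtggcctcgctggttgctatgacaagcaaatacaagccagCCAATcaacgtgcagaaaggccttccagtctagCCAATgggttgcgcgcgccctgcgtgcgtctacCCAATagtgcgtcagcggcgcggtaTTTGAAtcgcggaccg
Bub1: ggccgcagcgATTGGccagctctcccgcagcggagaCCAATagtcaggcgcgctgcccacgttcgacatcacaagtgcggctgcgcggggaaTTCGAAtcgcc
Kif20b: gccgccattgTTTGAATTTGAAaaccgg
Mki67: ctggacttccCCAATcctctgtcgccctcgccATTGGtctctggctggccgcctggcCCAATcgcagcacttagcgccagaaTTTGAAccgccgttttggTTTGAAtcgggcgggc
Bub3: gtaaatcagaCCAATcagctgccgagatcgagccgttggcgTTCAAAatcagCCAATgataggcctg

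The unmutated fusion was compared with the empty vector to see what G-NHX9 did to the mitotic program. In G-NHX9, 35 of the 40 genes were higher than in Empty and 0 were lower (edgeR's quasi-likelihood test, Benjamini-Hochberg adjusted p under 0.05 over 17166 genes), where 16.9% of all genes tested were called higher and 15.2% lower. The median change of the 40 was 0.70 on the log2 scale, or 1.63-fold, against 0.01 for all genes tested. All 40 log2 fold changes were positive, from 0.34 to 0.99, and all 40 had an unadjusted p under 0.05. The 5 that missed the threshold were Cenpf, Ndc80, Spc25, Kif23 and Prc1, with log2 fold changes of 0.39 to 0.65. Of these, Cenpf (edgeR adjusted p = 0.024) and Ndc80 (edgeR adjusted p = 0.04) passed when the replicate number was a block. DESeq2 also called 35 higher and 0 lower. Without Empty 2 the count was 23, and without Empty 1 it was 40. In 13 of the 40 genes no G-NHX9 library overlapped an Empty library, and 0 lay wholly below Empty, where 10.6% of all genes lay wholly above and 9.51% wholly below.

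By role, the cyclins and Cdk1 rose in 5 of 5 genes, the mitotic kinases in 3 of 3, the chromosomal passenger complex in 4 of 4, the checkpoint genes in 7 of 7, the kinetochore genes in 5 of 8, the kinesins in 6 of 7, the midzone and cytokinesis genes in 3 of 4, and Top2a and Mki67 both rose. Cdc20, which activates the anaphase-promoting complex once all chromosomes are attached, read 38.5, 21.8, 25.7, 22.6 and 25.3 CPM in Empty 1 to 5 and 43.4, 58.2, 48.1, 54.1 and 62.2 CPM in G-NHX9 1 to 5. All 5 G-NHX9 libraries were above all 5 Empty libraries, with Empty 1 the closest. The difference was 0.99 ± 0.21 (log2 fold change ± SE), the largest of the 40 (edgeR adjusted p = 0.00037).

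Kif20b, a kinesin of late cytokinesis whose printed start holds a doubled CHR motif, read 50.6, 18.2, 27.6, 17.9 and 24.9 CPM in Empty and 65.1, 55.1, 30.8, 48.1 and 73.1 CPM in G-NHX9. G-NHX9 3 and G-NHX9 4 were below Empty 1, so the groups overlapped, and the log2 fold change was 0.97 ± 0.26 (edgeR adjusted p = 0.0048). Mki67 read 553, 264, 372, 308 and 412 CPM in Empty and 616, 543, 332, 604 and 757 CPM in G-NHX9. Its groups overlapped at both ends, with Empty 1 above G-NHX9 2 and 3, and G-NHX9 3 below 3 of the Empty libraries. The log2 fold change was 0.58 ± 0.22 (edgeR adjusted p = 0.045), and this call was lost in 8 of the 10 fits that left out 1 library.

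Among the most abundant genes of the other roles, Aurkb, the kinase of the chromosomal passenger complex, read 45.8, 23.8, 35.9, 29.7 and 36.0 CPM in Empty and 52.2, 64.7, 51.5, 58.2 and 63.7 CPM in G-NHX9. Its groups did not overlap, and the log2 fold change was 0.76 ± 0.18 (edgeR adjusted p = 0.001). Cenpa, the histone variant that marks the centromere, read 57.6, 38.1, 49.1, 43.7 and 53.8 CPM in Empty and 62.5, 81.5, 67.5, 72.5 and 82.5 CPM in G-NHX9, again without overlap. It rose by a log2 fold change of 0.60 ± 0.14 (edgeR adjusted p = 0.001). Aurka, a kinase of the centrosome, read 40.4, 19.7, 27.8, 24.1 and 31.8 CPM in Empty and 40.1, 54.1, 41.7, 49.0 and 59.9 CPM in G-NHX9, where only G-NHX9 1 was below an Empty library. It rose by 0.77 ± 0.20 (edgeR adjusted p = 0.0032).

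Ccnb2, with 2 CHR motifs and 3 CCAAT boxes in the printed promoter, read 57.0, 27.7, 39.2, 31.3 and 36.4 CPM in Empty and 53.6, 69.8, 58.3, 53.4 and 58.1 CPM in G-NHX9. Empty 1 was above 2 of the G-NHX9 libraries and the other 4 Empty libraries were below all of them. The log2 fold change was 0.61 ± 0.22 (edgeR adjusted p = 0.033), which 6 of the 10 fits without 1 library lost. Kif11, the kinesin that pushes the spindle poles apart, read 129, 47.9, 75.2, 57.3 and 67.6 CPM in Empty and 149, 143, 98.4, 115 and 161 CPM in G-NHX9, so that Empty 1 alone reached into the G-NHX9 range. Tpx2, which nucleates spindle microtubules and activates Aurka, read 94.2, 46.2, 63.1, 58.4 and 74.1 CPM in Empty and 101.3, 106, 77.2, 102 and 127 CPM in G-NHX9. Only Empty 1 overlapped the G-NHX9 libraries, and the log2 fold changes were 0.82 ± 0.22 for Kif11 and 0.61 ± 0.19 for Tpx2 (edgeR adjusted p = 0.0048 and 0.011).

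Other genes of the mitotic machinery and of DNA replication were listed by name and moved in the same comparison. Of 104 other mitotic genes, 68 were higher and 2 lower in G-NHX9 than in Empty, with a median log2 fold change of 0.52. Mybl2, which encodes the activator B-MYB, rose the most, from 11.5 to 28.8 CPM on average (log2 fold change 1.32 ± 0.26, edgeR adjusted p = 0.00016), and Cenpp, a kinetochore subunit, rose by 0.96 ± 0.22 (edgeR adjusted p = 0.00084). The 2 lower genes were Cdc25b, a phosphatase of mitotic entry, from 82.7 to 44.99 CPM (log2 fold change -0.88 ± 0.14, edgeR adjusted p = 5.9e-06), and Ensa, an inhibitor of the phosphatase PP2A (log2 fold change -0.25 ± 0.09, edgeR adjusted p = 0.026). By list, 21 of 27 other kinetochore genes, 7 of 8 condensin genes and 8 of 19 other genes of the checkpoint and of anaphase were higher, where 16.9% of all genes were, and the difference between lists was not tested. Of 41 DNA replication genes, 36 were higher and 0 lower, with a median of 0.59 (38 higher and 0 lower at an unadjusted edgeR p under 0.05).

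Markers of the cell types that the culture can hold moved beside these genes. In G-NHX9, stem and progenitor markers gave 6 higher and 1 lower of 9 against Empty, 4 of 5 azurophil granule markers were higher, and 6 of 10 mast cell and basophil markers were lower. Macrophage markers gave 3 higher and 2 lower of 10, and neutrophil markers 0 higher and 2 lower of 10 (2 and 3 at an unadjusted edgeR p under 0.05). The summed stem and progenitor markers were 615 to 762 CPM in G-NHX9 against 302 to 432 CPM in Empty, and the mast cell and basophil markers 780 to 1093 against 1382 to 3747 CPM. The stem and progenitor list was Kit, Cd34, Flt3, Ly6a, Slamf1, Mecom, Hlf, Meis1 and Gata2. Of these, the paper reports Flt3 and Meis1 as upregulated in cells with the unmutated fusion, so the sum is not a count of progenitor cells. Gata2 also stood in the mast cell and basophil list. The 14 erythroid markers tested gave 0 calls either way by edgeR, with 0 higher and 1 lower at an unadjusted p under 0.05, and their sum was 305 to 795 CPM in G-NHX9 and 330 to 895 CPM in Empty. Their part in the change of the mitotic genes was not tested.

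**Figure D3:**
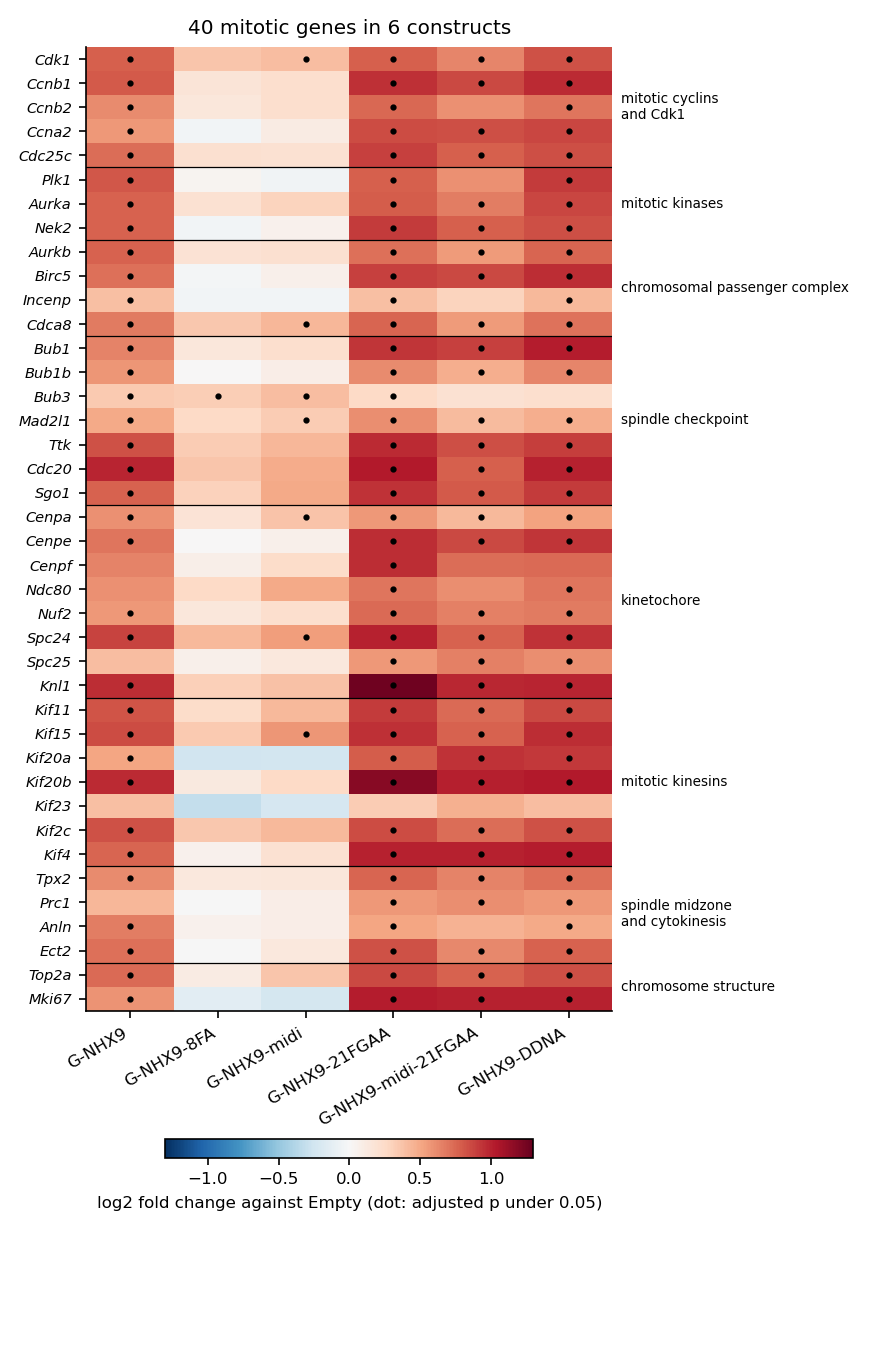
Log2 fold change of each of the 40 genes (rows, grouped by role) in each construct against Empty (columns), with a dot where the edgeR adjusted p was under 0.05. The dots number 35, 1, 7, 39, 32 and 37 from left to right, and all stand on positive values.

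The FG mutants were compared with Empty in the same fit, and these comparisons share the 5 Empty libraries. In G-NHX9-8FA, 1 of the 40 genes, Bub3, was higher than Empty and 0 were lower, where 13.4% of all genes were called higher and 13.2% lower, and 4 were higher and 0 lower at an unadjusted edgeR p under 0.05. The median log2 fold change was 0.14 and single genes ran from -0.31 to 0.42. DESeq2 also called 1 higher and 0 lower. For no member did all libraries of G-NHX9-8FA lie above or below those of Empty, where 8.32% of all genes lay wholly above and 8.75% wholly below. Bub3 read 90.7, 91.0, 84.2, 74.5 and 73.7 CPM in Empty and 103.9, 94.6, 86.2, 123.7 and 109.2 CPM in G-NHX9-8FA. G-NHX9-8FA 3 was the 1 library that fell within the Empty range. The log2 fold change was 0.32 ± 0.09 (edgeR adjusted p = 0.0095). Without Empty 4, Empty 5 or G-NHX9-8FA 4 no member was called, and without Empty 1 there were 3.

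Cdc20 read 24.5, 27.1, 24.8, 47.4 and 48.8 CPM in G-NHX9-8FA, with 3 libraries inside the Empty range and 2 above it. Its log2 fold change against Empty was 0.36 with a 95% interval of -0.06 to 0.78 (edgeR adjusted p = 0.2). Mki67 read 292, 275, 317, 315 and 543 CPM, where G-NHX9-8FA 5 stood alone above the other 4. Its log2 fold change was -0.13, with a 95% interval of -0.59 to 0.32 (edgeR adjusted p = 0.71). Kif20b read 27.4, 25.3, 34.95, 24.2 and 40.6 CPM, all within the Empty range, with an interval of -0.41 to 0.66 around a log2 fold change of 0.13.

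In G-NHX9-midi, 7 of the 40 genes were higher and 0 lower, where 20.5% of all genes were called higher and 20% lower. The count of higher members was thus no more than the share of all genes. The 7 were Cdk1, Cdca8, Bub3, Mad2l1, Cenpa, Spc24 and Kif15, and the median log2 fold change of the 40 was 0.22. At an unadjusted edgeR p under 0.05, 12 were higher and 0 lower. DESeq2 called 3 higher and 0 lower. The count rested on single libraries: without Empty 1 it was 16 and without G-NHX9-midi 4 it was 12. Without G-NHX9-midi 3 it was 4, without Empty 5 or G-NHX9-midi 5 it was 2, and without Empty 2, Empty 3, Empty 4 or G-NHX9-midi 2 it was 1.

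Kif15, a kinesin that helps to keep the spindle bipolar, read 56.6, 23.9, 35.4, 28.2 and 33.6 CPM in Empty and 35.2, 87.6, 56.4, 32.8 and 51.8 CPM in G-NHX9-midi. Only G-NHX9-midi 2 was above every Empty library. The log2 fold change was 0.57 ± 0.22 (edgeR adjusted p = 0.041), and 0.31 without G-NHX9-midi 2. Spc24, a subunit of the NDC80 complex that grips microtubules, read 14.0, 7.39, 11.1, 9.26 and 9.18 CPM in Empty and 8.45, 21.2, 15.6, 11.1 and 17.8 CPM in G-NHX9-midi. The groups overlapped, with 3 G-NHX9-midi libraries above all of Empty, and the log2 fold change was 0.54 ± 0.22 (edgeR adjusted p = 0.048). Bub3 read 95.6, 118.3, 104.5, 102.8 and 124.0 CPM in G-NHX9-midi and was the 1 member whose libraries did not overlap Empty, where 13.4% of all genes did not overlap in this direction. Its log2 fold change was 0.40 ± 0.09 (edgeR adjusted p = 0.00086).

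Other mitotic genes also gave fewer calls in these 2 groups, 14 of 104 higher in G-NHX9-8FA and 23 of 104 in G-NHX9-midi, each with 1 lower. Both counts of higher genes were near the shares of all genes called higher, 13.4% and 20.5%, where 13.2% and 20% were called lower. The lower gene was Cdc25b in both, with log2 fold changes of -1.26 ± 0.14 and -1.58 ± 0.14 (edgeR adjusted p = 1.9e-08 and 8.3e-11). Mybl2 rose by 0.76 ± 0.26 and 0.83 ± 0.26 (edgeR adjusted p = 0.027 and 0.0094), and Bora, which helps Aurka to activate Plk1, by 0.64 ± 0.14 and 0.89 ± 0.14 (edgeR adjusted p = 0.00093 and 6e-06). Of 41 DNA replication genes, 9 were higher in G-NHX9-8FA and 19 in G-NHX9-midi, and 0 were lower in either (0 and 1 at an unadjusted edgeR p under 0.05). Erythroid markers were lower in 13 of 14 and 12 of 14 cases, summing to 117 to 160 CPM in G-NHX9-8FA and 144 to 203 CPM in G-NHX9-midi. Neutrophil markers gave 5 higher and 0 lower of 10 in G-NHX9-8FA, summing to 14773 to 33278 CPM against 8709 to 12570 CPM in Empty, and 3 higher and 3 lower in G-NHX9-midi, summing to 9925 to 21349 CPM. Mast cell and basophil markers were lower in 8 of 10 in each group, and azurophil granule markers higher in 4 and 3 of 5. Stem and progenitor markers gave 3 higher and 2 lower of 9 in G-NHX9-8FA and 4 higher and 3 lower in G-NHX9-midi, and macrophage markers 1 higher and 2 lower and 1 higher and 6 lower of 10. The part of these cell types in the mitotic gene levels was not tested.

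In each of the remaining 3 constructs most of the 40 genes were higher than in Empty. In G-NHX9-21FGAA, 39 of 40 were higher and 0 lower, where 14.7% of all genes were called higher and 12.5% lower. The median log2 fold change was 0.83, against -0.02 for all genes, and 31 of the 40 genes lay wholly above Empty and 0 wholly below, against 9.05% and 7.79% of all genes. DESeq2 also called 39 higher and 0 lower. Kif23, a kinesin of the central spindle, was the 1 gene not called, at a log2 fold change of 0.33 ± 0.17 (edgeR adjusted p = 0.15).

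Knl1, the scaffold on which the kinetochore recruits checkpoint proteins, had the largest change. It read 57.0, 28.5, 38.6, 28.5 and 35.4 CPM in Empty and 93.9, 79.4, 84.9, 94.7 and 100.0 CPM in G-NHX9-21FGAA. The lowest G-NHX9-21FGAA library was above Empty 1, and the log2 fold change was 1.27 ± 0.22, or 2.41-fold (edgeR adjusted p = 0.0001). Kif20b read 69.2, 51.5, 52.9, 71.7 and 71.6 CPM, each above Empty 1 at 50.6 CPM, and rose by 1.19 ± 0.26 (edgeR adjusted p = 0.0011). Mki67 read 872, 630.0, 684, 855 and 832 CPM, also without overlap, and rose by 1.02 ± 0.23 (edgeR adjusted p = 0.001). Cdc20 read 44.4, 56.5, 50.6, 56.5 and 65.6 CPM and rose by 1.03 ± 0.21 (edgeR adjusted p = 0.00043).

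In G-NHX9-DDNA, 37 of 40 genes were higher and 0 lower, where 9.85% of all genes were called higher and 7.35% lower. Of the 40, 17 lay wholly above Empty and 0 wholly below, against 5.82% and 6.31% of all genes. DESeq2 called 38 higher and 0 lower. The median log2 fold change was 0.84, and the 3 genes not called were Bub3, Cenpf and Kif23. Cenpf, a large kinetochore protein, passed with the replicate number as a block (edgeR adjusted p = 0.019, against 0.05 without it).

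Bub1, a kinase of the checkpoint whose printed promoter holds 2 CCAAT boxes and the TTCGAA form of the CHR, read 53.3, 20.6, 32.5, 25.6 and 34.4 CPM in Empty and 85.8, 82.7, 74.9, 50.8 and 44.3 CPM in G-NHX9-DDNA. G-NHX9-DDNA 4 and 5 were below Empty 1, and the log2 fold change was 1.03 ± 0.22 (edgeR adjusted p = 0.0018). Kif20b read 70.9, 58.3, 72.2, 45.4 and 37.1 CPM, with the same 2 libraries lowest, and rose by 1.03 ± 0.26 (edgeR adjusted p = 0.0074). Mki67 read 949, 693, 841, 689 and 650 CPM, all above Empty, and rose by 1.00 ± 0.23 (edgeR adjusted p = 0.0029).

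In G-NHX9-midi-21FGAA, 32 of 40 genes were higher and 0 lower, where 9.59% of all genes were called higher and 7.32% lower. The median log2 fold change was 0.73, and 22 genes lay wholly above Empty and 0 wholly below, against 5.98% and 5.49% of all genes. DESeq2 called 34 higher and 0 lower. The count was 17 without Empty 2 and 19 without Empty 4. With the replicate number as a block 37 passed, adding Plk1, Cenpf, Ndc80, Kif23 and Anln (edgeR adjusted p = 0.022, 0.019, 0.048, 0.036 and 0.025).

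Kif20b read 58.8, 58.1, 55.8, 38.5 and 69.8 CPM in G-NHX9-midi-21FGAA, where library 4 alone fell below Empty 1. It rose by 1.01 ± 0.26 (edgeR adjusted p = 0.0082). Mki67 read 780, 712, 665, 683 and 973 CPM, all above Empty, and rose by 1.00 ± 0.23 (edgeR adjusted p = 0.0031). Bub3 read 87.8, 96.8, 97.5, 103.8 and 88.3 CPM and had the smallest log2 fold change of the 40, 0.20 ± 0.09 (edgeR adjusted p = 0.15).

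**Figure D4:**
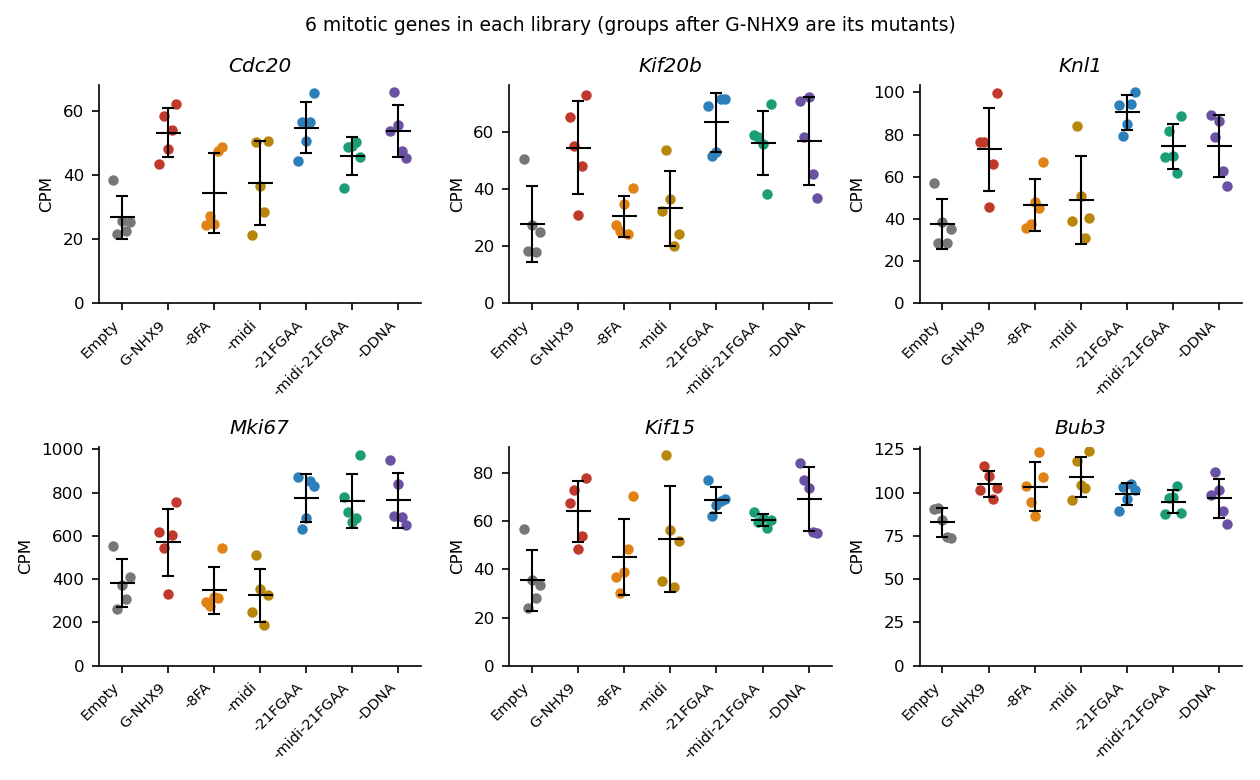
Levels of 6 mitotic genes (CPM, vertical axes from 0) in each library, by group, with the mean and SD over 5 libraries. All 6 genes have higher means than Empty in G-NHX9 and in the -21FGAA, -midi-21FGAA and -DDNA mutants. Bub3 has the narrowest relative range of the 6, from 73.7 to 124.0 CPM over all libraries.

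The most abundant genes of the other roles were also read in these groups. In G-NHX9-21FGAA, G-NHX9-midi-21FGAA and G-NHX9-DDNA, Aurka ran from 41.0 to 57.9, 40.5 to 48.4 and 44.2 to 63.9 CPM, each range above the highest Empty library at 40.4 CPM. Tpx2 ran from 102.3 to 127, 98.5 to 112.4 and 99.1 to 126 CPM, also above the highest Empty library at 94.2 CPM in each. Cenpa ran from 66.3 to 76.2, 56.6 to 71.3 and 64.0 to 74.4 CPM, where G-NHX9-midi-21FGAA reached below the highest Empty library at 57.6 CPM and the others did not. Aurkb, Ccnb2 and Kif11 each overlapped Empty in at least 1 of these groups. Aurkb was 49.9 to 60.8, 43.9 to 55.7 and 51.4 to 67.4 CPM, Ccnb2 61 to 69.9, 50.2 to 65.7 and 52.5 to 73.7 CPM, and Kif11 124 to 158, 112.2 to 132 and 100.7 to 169.6 CPM.

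In G-NHX9-8FA and G-NHX9-midi each of these genes overlapped Empty. Aurka ran from 24.1 to 47.2 and 21.6 to 47.8 CPM, Aurkb from 30.6 to 54.4 and 26.0 to 55.4 CPM, and Cenpa from 40.8 to 69.9 and 43.7 to 81.5 CPM. Ccnb2 ran from 28.9 to 63.8 and 22.9 to 69.5 CPM, Kif11 from 68.0 to 127 and 62.5 to 168.7 CPM, and Tpx2 from 54.5 to 108.4 and 53.4 to 109.0 CPM.

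Other mitotic genes followed in the 3 groups where the members rose, 79 of 104 higher in G-NHX9-21FGAA, 76 in G-NHX9-DDNA and 55 in G-NHX9-midi-21FGAA, with 2, 2 and 1 lower. Of all genes, 14.7%, 9.85% and 9.59% were called higher and 12.5%, 7.35% and 7.32% lower. Ensa was lower in each of the 3 groups, by log2 fold changes of -0.36 ± 0.09, -0.35 ± 0.09 and -0.31 ± 0.09 (edgeR adjusted p = 0.0025, 0.0062 and 0.014). The other lower genes were Cdc25b in G-NHX9-21FGAA, at -0.46 ± 0.13, and Pttg1, the securin that holds separase in check, in G-NHX9-DDNA, at -0.30 ± 0.10 (edgeR adjusted p = 0.01 and 0.034). Mybl2 rose by 1.17 ± 0.26 in G-NHX9-21FGAA and 1.21 ± 0.26 in G-NHX9-DDNA (edgeR adjusted p = 0.001 and 0.002). Cenpp rose by 1.09 ± 0.22 and 1.03 ± 0.22 in the same groups (edgeR adjusted p = 0.00038 and 0.0019). In G-NHX9-midi-21FGAA the largest rises were in Smc2 and Ncapg, subunits of condensin, at 0.91 ± 0.25 and 0.84 ± 0.21 (edgeR adjusted p = 0.011 and 0.0057).

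Markers of other cell types also moved in these groups. Of 14 erythroid markers, 8 were higher in G-NHX9-21FGAA, 11 in G-NHX9-midi-21FGAA and 5 in G-NHX9-DDNA, with sums of 611 to 2171, 748 to 1923 and 667 to 2063 CPM against 330 to 895 CPM in Empty. Of 10 mast cell and basophil markers, 4, 4 and 0 were higher and 0 were lower in any (for G-NHX9-DDNA, 1 higher and 0 lower at an unadjusted edgeR p under 0.05). Of 5 azurophil granule markers, 5, 0 and 5 were higher (for G-NHX9-midi-21FGAA, 0 either way at an unadjusted edgeR p under 0.05). Of 9 stem and progenitor markers, 6, 3 and 4 were higher and 0, 0 and 1 lower, with summed means of 695, 624 and 439.7 CPM against 359.8 CPM in Empty. Of 10 macrophage markers, 4, 1 and 2 were lower, and of 10 neutrophil markers 2 were lower in each, with 2 higher in G-NHX9-DDNA. Their part in the mitotic gene levels was not tested.

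Direct comparisons tested whether the mutants differed from the unmutated fusion. In G-NHX9-8FA, 20 of the 40 genes were lower than in G-NHX9 and 0 higher, where 8.04% of all genes were called lower and 6.43% higher, with a median log2 fold change of -0.57 and 0 higher at an unadjusted edgeR p under 0.05. DESeq2 also called 20 lower and 0 higher. Nek2, a kinase that separates the centrosomes, read 28.4, 35.3, 28.8, 32.6 and 38.4 CPM in G-NHX9 and 13.3, 16.3, 18.5, 19.6 and 25.9 CPM in G-NHX9-8FA. Only 2 of the 40 members lay wholly below G-NHX9, near the share of all genes, of which 5.69% lay wholly below and 3.72% wholly above. Nek2 was 1 of these 2 and fell by 0.81 on the log2 scale (SE 0.18, edgeR adjusted p = 0.0019). The other was Kif20a, a kinesin of the midzone that recruits the passenger complex, which fell by 0.76 (SE 0.19, edgeR adjusted p = 0.0051). Nek2 and Kif20a were singled out here after their values were seen. Kif23, not called against Empty in any construct, fell by 0.70 (SE 0.17, edgeR adjusted p = 0.0046). The count was 31 without G-NHX9-8FA 5, 13 without G-NHX9 4, 8 without G-NHX9 2 or G-NHX9-8FA 3, 7 without G-NHX9-8FA 1 or 2, and 5 without G-NHX9 5.

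In G-NHX9-midi, 13 of the 40 genes were lower than in G-NHX9 and 0 higher, where 11.2% of all genes were called lower and 8.5% higher, with a median of -0.44 and 0 higher at an unadjusted edgeR p under 0.05. DESeq2 called 14 lower and 0 higher. Mki67 read 249, 513, 355, 190 and 326 CPM in G-NHX9-midi, 3 of them below every G-NHX9 library, and fell by 0.81 (SE 0.22, edgeR adjusted p = 0.0096). Nek2 and Kif20a were again the only 2 of the 40 without overlap, a share under that of all genes, of which 7.65% lay wholly below and 5.42% wholly above. They fell by 0.71 and 0.75 (SE 0.18 and 0.19, edgeR adjusted p = 0.0037 and 0.0039). Bub3 was the 1 gene with a positive log2 fold change, 0.05, with a 95% interval of -0.14 to 0.24. The count was 30 without G-NHX9-midi 2, 7 without G-NHX9 4, 6 without G-NHX9 2, 5 without G-NHX9 5, G-NHX9-midi 1 or 3, and 4 without G-NHX9-midi 4. The count of 4 was near the share of all genes in that fit, of which 1784 of 17423 were lower.

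Of the 104 other mitotic genes, 21 were lower and 3 higher in G-NHX9-8FA than in G-NHX9, where 8.04% of all genes were called lower and 6.43% higher. In G-NHX9-midi 10 were lower and 2 higher, where the shares of all genes were 11.2% and 8.5%. The count of lower genes in G-NHX9-midi was thus near the share of all genes. Erythroid markers were lower in 14 of 14 and 13 of 14 cases, and stem and progenitor markers in 6 of 9 in both, with 1 of 9 higher in G-NHX9-midi. The summed stem and progenitor markers were 323 to 425 CPM in G-NHX9-8FA and 285 to 412 CPM in G-NHX9-midi, against 615 to 762 CPM in G-NHX9. Neutrophil markers gave 7 higher and 0 lower of 10 in G-NHX9-8FA and 5 higher and 2 lower in G-NHX9-midi, and macrophage markers were lower in 5 and 6 of 10. In G-NHX9-midi, 2 of 10 mast cell and basophil markers and 1 of 5 azurophil granule markers were also lower. Their part in the lower mitotic gene levels was not tested.

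No member was called between G-NHX9-21FGAA and G-NHX9 by edgeR, by DESeq2 or at an unadjusted edgeR p under 0.05, where 8.91% of all genes were called higher and 8.34% lower. No member lay wholly above or below G-NHX9, where 6.38% of all genes lay wholly above and 5.13% wholly below. The median log2 fold change was 0.13, and the intervals set how far each gene may differ. Cdk1 read 83.1, 101.9, 89.0, 98.6 and 104.4 CPM in G-NHX9-21FGAA and 83.2, 109.8, 87.9, 96.6 and 99.5 CPM in G-NHX9. These values lay on top of one another, and the 95% interval of the log2 fold change was -0.33 to 0.33. Mki67 had the largest difference, 0.44, with an interval of -0.01 to 0.90.

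Between G-NHX9-DDNA and G-NHX9 no member was called by edgeR or DESeq2, and 1 was higher and 0 lower at an unadjusted edgeR p under 0.05, where 10.7% of all genes were called higher and 11.4% lower. No member lay wholly above or below G-NHX9, as 7.03% and 7.21% of all genes did, and the median was 0.09. Without G-NHX9 5, 1 member was called higher. Cdc20 differed by 0.01 with an interval of -0.41 to 0.43 and Mki67 by 0.42 with an interval of -0.03 to 0.88. Over the same 2 comparisons, erythroid markers were higher in 11 of 14 cases in each, and mast cell and basophil markers in 8 and 7 of 10. Stem and progenitor markers gave 3 higher and 4 lower of 9 in G-NHX9-21FGAA and 2 higher and 5 lower in G-NHX9-DDNA, macrophage markers 1 higher and 5 lower and 1 higher and 6 lower of 10, and neutrophil markers 1 higher and 1 lower and 3 higher and 0 lower of 10. The part of these markers was not tested. Missing the threshold does not show that these mutants left the mitotic genes where G-NHX9 did.

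**Figure D5:**
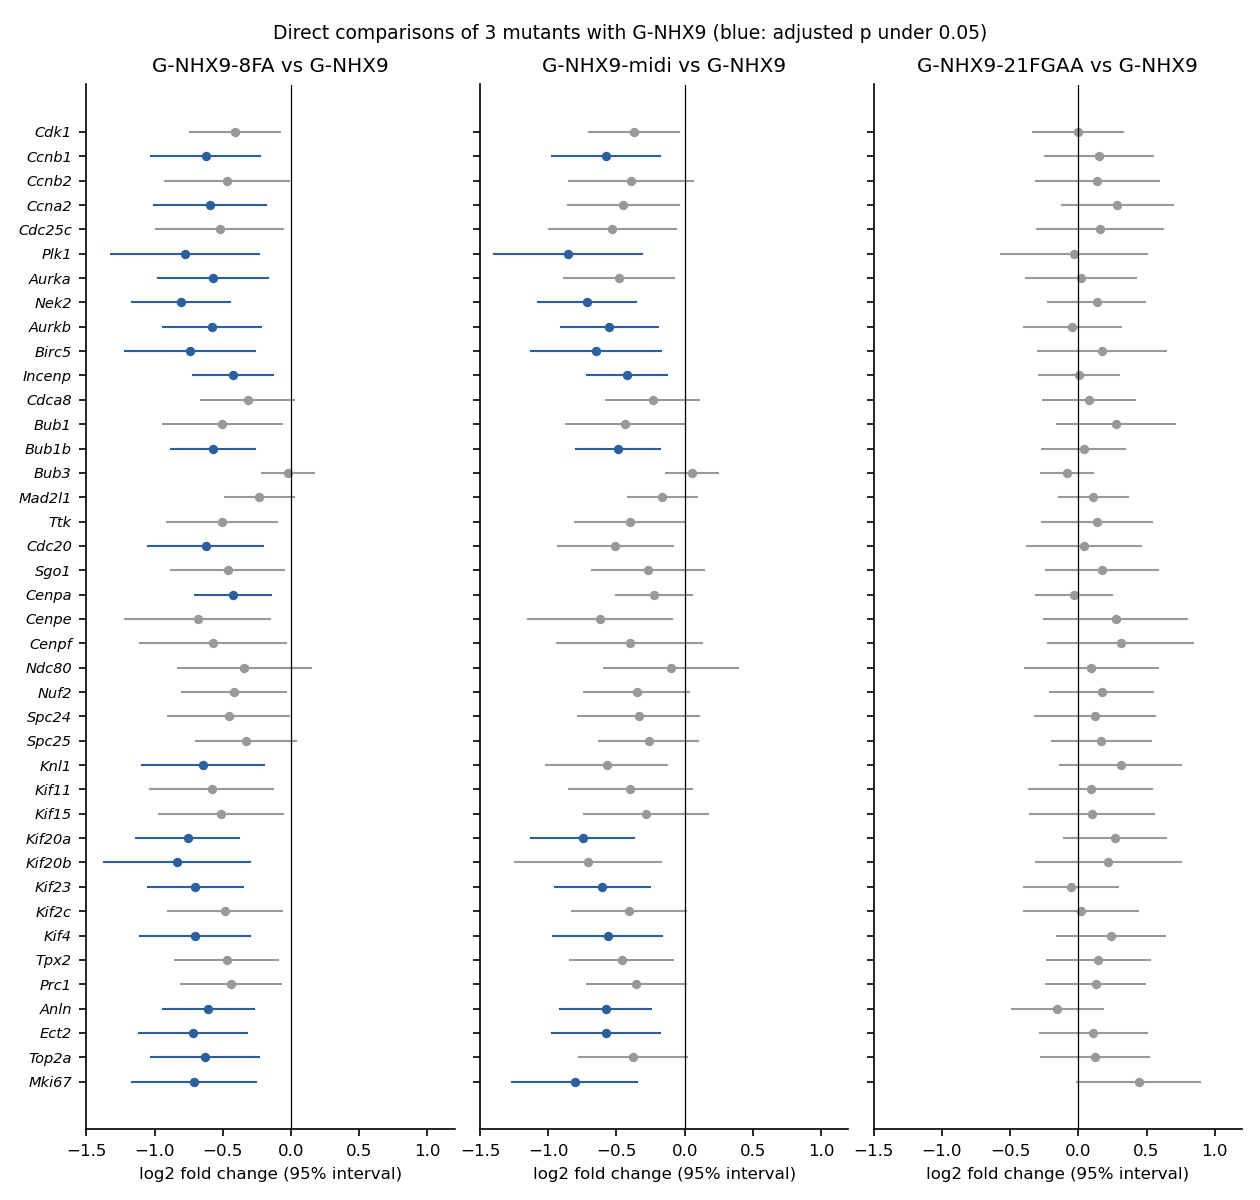
Log2 fold change of each of the 40 genes with its 95% interval (horizontal axis) for G-NHX9-8FA, G-NHX9-midi and G-NHX9-21FGAA against G-NHX9. Blue marks an edgeR adjusted p under 0.05, of which there are 20, 13 and 0, and the Bub3 interval crosses 0 in each panel.

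The last comparison asked what the FG mutations did within the shortened construct. In G-NHX9-midi-21FGAA, 19 of the 40 genes were higher than in G-NHX9-midi and 0 lower, where 21% of all genes were called higher and 22.2% lower, with a median of 0.43. At an unadjusted edgeR p under 0.05, 24 were higher and 1, Bub3, was lower, and DESeq2 called 20 higher and 0 lower. Mki67, at 665 to 973 CPM against 190 to 513 CPM, rose by 1.22 ± 0.23, or 2.34-fold (edgeR adjusted p = 4.1e-05). Kif20a read 65.2, 59.7, 70.3, 79.2 and 67.4 CPM in G-NHX9-midi-21FGAA and 20.5, 41.2, 29.0, 23.1 and 37.7 CPM in G-NHX9-midi. It rose by 1.17 ± 0.19, or 2.26-fold (edgeR adjusted p = 4.8e-06).

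These 2 genes, Ccna2, Nek2, Birc5 and Kif4 were the 6 of 40 members without overlap. That count was near the share of all genes, of which 14.2% lay wholly above and 15.9% wholly below. Other members moved little, such as Cenpa with a log2 fold change of 0.05, Mad2l1 with 0.08, Ndc80 with 0.11 and Cdca8 with 0.12 (edgeR adjusted p = 0.82, 0.65, 0.74 and 0.61). The difference between members was not itself tested. The count was 29 without G-NHX9-midi 2, 12 without G-NHX9-midi-21FGAA 5, 11 without G-NHX9-midi 1 and 10 without G-NHX9-midi 4. In the last of these fits 20.1% of all genes were higher, so the count of 10 was near that share. All 14 erythroid markers and all 10 mast cell and basophil markers were higher in the same comparison and all 5 azurophil granule markers lower, while stem and progenitor markers gave 6 higher and 3 lower of 9, neutrophil markers 2 higher and 5 lower of 10 and macrophage markers 3 higher and 1 lower of 10. Klf1 and Slc4a1, defining erythroid genes, averaged 0.39 and 0.53 CPM in G-NHX9-midi and 15.4 and 75.2 CPM in G-NHX9-midi-21FGAA, and their part was not tested.

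Some members overlap other annotated genes, which limits their values. Ccna2, Cdc20, Kif20a, Kif4, Prc1 and Bub3 share bases with a coding gene on the opposite strand, and Cdca8 with 9930104L06Rik on the opposite strand. The sources used here do not say whether the counting kept the strands apart, so reads of such a pair may have been mixed or dropped. Identifiers and positions follow GENCODE M21 (GRCm38): Mki67 at chr7:135689784-135716361, Cdc20 at chr4:118432901-118437352, Knl1 at chr2:119047119-119105501, Kif20b at chr19:34922361-34975745, Kif15 at chr9:122951046-123018733, Nek2 at chr1:191821444-191833050 and Bub3 at chr7:131560222-131571895. The counts cover their exons.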

How the data were processed

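RNA-seq libraries of 35 samples in 7 groups of 5 were used. Per the labels they were stranded total RNA libraries sequenced on a NovaSeq. The submitters' processing notes name STAR 2.7.0d, HTSeq 0.11.2, DESeq2 and mm10, and the authors deposited raw read counts per gene, with no normalization. Groups came from the labels.

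The deposited counts of 17166 genes that passed filterByExpr (99.96% of all counts) were fitted with edgeR 4.0.16 in R 4.3.3 (TMM, quasi-likelihood, 1 mean per group, all 35 libraries), giving 11 comparisons with Benjamini-Hochberg adjustment over all genes at 0.05. SEs are on the log2 scale. CPM is edgeR's TMM-scaled count relative to library size. SDs are over the 5 libraries of a group. Intervals of log2 fold changes come from the SEs of the fit to all 35 libraries. On simulated counts for G-NHX9 against Empty (16816 genes), 57% of 100 genes changed 1.5-fold and 84% of 100 changed 2-fold were recovered, with 5 unchanged genes called. Only those genes were changed in the simulation, whereas 32.1% of all genes were called in the data. The adjusted threshold therefore differs, and these recovery rates need not hold for the reported test. No 2 libraries of a group agreed within sampling noise (lowest chi-square per degree of freedom 23.3 over 70 pairs).

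The 40 genes, the role lists, the other mitotic genes and the marker lists (erythroid, neutrophil, azurophil granule, macrophage, mast cell and basophil, stem and progenitor, DNA replication) were chosen with earlier results of these data known. The genes given library by library were the member of each role with the highest CPM per kilobase and the 2 with the largest called change in each direction against Empty, each in the groups where it is described (ranges or no values elsewhere), and other mitotic genes are named where they are the 2 largest called changes in each direction. Nek2, Kif20a and Cdk1 were added after their values were seen, as were the 6 promoters printed.

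Replicate numbers in the labels may pair libraries across groups. The correlation of the deviations of same-numbered libraries from their group means exceeded 0.1 in every pair in 5 of the 11 comparisons (G-NHX9, G-NHX9-midi-21FGAA and G-NHX9-DDNA against Empty, and G-NHX9-21FGAA and G-NHX9-DDNA against G-NHX9), from 0.124 to 0.568, and blocked values are given there where they change a call. The paper's methods state that cells were prepared in parallel and that each virus was used in triplicate, while its figure and the labels give 5 per group. What the replicate numbers mark is not stated, so the pairing comes from the data and the numbers alone. Alternatives were no TMM, RLE factors, no low-count filter, keeping genes with a mean above 1 CPM, the replicate block, only the 2 groups compared, DESeq2 1.42.0 and leaving out each library. Sequences are RefSeq promoters of GRCm38.p6.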

Additional observations from a re-analysis of the deposited data

Results flagged for a closer look

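In 105 tests of a group of 5 libraries (the summed level of the 40 genes and the levels of the 14 genes chosen by the naming rule, in 7 groups), 3 libraries stood apart from the rest of their group by Dixon's ratio, above its limit of 0.71 before rounding. Chance alone flags about 1 in 20 groups. Cdc20 was 38.5 CPM in Empty 1 against 21.8 to 25.7 CPM in the other 4 (ratio 0.762). Mki67 was 543 CPM in G-NHX9-8FA 5 against 275 to 317 CPM (ratio 0.841), and Kif11 was 127 CPM in the same library against 68.0 to 85.1 CPM.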

How the results depend on the processing

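No named member called in the main fit reversed its direction, and no median of the 40 genes did, under the alternatives that used all libraries. Named members not called in the main fit were not followed there. Fitting only the 2 groups compared left fewer libraries to estimate the spread and lowered several counts. Higher members against Empty then numbered 0 in G-NHX9-8FA and 1 in G-NHX9-midi, under the 10.8% and 18.7% of all genes. Lower members against G-NHX9 numbered 11 in G-NHX9-8FA, where 1035 of 15440 genes were lower. In G-NHX9-midi they numbered 3, no more than the share of all genes, 1536 of 15316. In G-NHX9-midi against Empty the higher members numbered 12 without TMM, 1 without a filter and 3 with DESeq2. Of all genes, 29.6%, 7.97% and 15.7% were higher, so the 12 were near that share and the others under it. Without TMM the median of all genes against Empty shifted to between 0.08 and 0.19 (log2), and the share of calls that were higher rose from 52.5% to 75.4% in G-NHX9, from 50.6% to 64.6% in G-NHX9-midi, from 54% to 82.1% in G-NHX9-21FGAA, from 56.7% to 83.1% in G-NHX9-midi-21FGAA and from 57.3% to 82.5% in G-NHX9-DDNA, and fell from 44.4% to 20% in G-NHX9-8FA against G-NHX9, while the members' calls kept their direction.

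Leaving out 1 library gave 23 to 40 higher members in G-NHX9, 0 to 3 in G-NHX9-8FA, 1 to 16 in G-NHX9-midi (and 0 to 1 lower), 33 to 40 in G-NHX9-21FGAA, 17 to 37 in G-NHX9-midi-21FGAA and 28 to 39 in G-NHX9-DDNA against Empty. It gave 5 to 31 lower members in G-NHX9-8FA and 4 to 30 in G-NHX9-midi against G-NHX9, 0 to 1 higher in G-NHX9-DDNA against G-NHX9, and 10 to 29 higher with 0 to 1 lower in G-NHX9-midi-21FGAA against G-NHX9-midi. The 5 came without G-NHX9 5, where 1001 of 17401 genes were lower. The 4 and the 10 both came without G-NHX9-midi 4. There 1784 of 17423 genes were lower and 20.1% were higher in the same 2 comparisons, so both counts were near the share of all genes. The median in G-NHX9-8FA against Empty ran from -0.01 (without G-NHX9-8FA 5) to 0.30. Of the fits for single named genes, 134 without 1 library and 23 under other alternatives lost their call, and 586 and 481 kept it.

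Under the replicate block, called members against Empty were 37, 1, 5, 39, 37 and 38 in the order G-NHX9, G-NHX9-8FA, G-NHX9-midi, G-NHX9-21FGAA, G-NHX9-midi-21FGAA and G-NHX9-DDNA, and 21, 18, 0, 0 and 22 in the direct comparisons. In G-NHX9-midi against Empty, where the numbers do not pair the libraries, Cdk1 and Spc24 were not called under the block (edgeR adjusted p = 0.054 and 0.066). In the 5 paired comparisons the block changed no call beyond those given in the text. The lowest count of any member was 161, and no depth-matched fit was run.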
